A study of Canis lupus familiaris with 7 samples.

Results

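The cardiac myosins and the proteins that act on them directly were followed in the left ventricle of dogs on a low-salt diet: the heavy chain MYH7, the light chains MYL2, MYL3, MYL4 and MYL7, myosin-binding protein C (MYBPC3) and the cardiac light chain kinase (MYLK3). They were chosen as all probe sets (a probe set is the group of short probes that reads 1 transcript) that the platform annotation gives to 1 of 8 gene symbols. This found 20 probe sets of 7 genes, among 15115 genes with such a probe set on the array. The eighth gene, the heavy chain MYH6, has no probe set under its symbol in that annotation and is not analysed here. Total RNA labelled as left ventricle of male dog hearts was hybridised to 1-colour Affymetrix canine arrays. There were 4 arrays of the low-salt diet (samples 1 to 4; 0.5% sodium chloride for 2 weeks, adult mongrel dogs per the design text) and 3 arrays of the control protocol (samples 1, 3 and 4), for which the labels give no diet or duration. No transgene or drug is named for either group. Per the design text 10 dogs were fed this way. Whether RNA was pooled, and whether each array is a separate animal, is not stated, so the p-values cover only the spread between arrays.

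Cardiac myosin is a hexamer of heavy chains, which hold the ATP-driven motor, and of an essential and a regulatory light chain bound to the neck of each head. The adult ventricle of large mammals uses mainly the slow β heavy chain MYH7 with the ventricular essential light chain MYL3 and regulatory light chain MYL2. The atrium uses the faster α heavy chain MYH6 with the atrial essential light chain MYL4 and regulatory light chain MYL7. MYL4 is also made in the embryonic ventricle, and in human hearts it is known to return in the overloaded ventricle. MYBPC3 restrains the myosin heads on the thick filament, and MYLK3 phosphorylates MYL2.

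The atrial essential light chain MYL4 stood lower in low salt on both of its probe sets. MYL4 was at 0.227 and 0.309 of its control level by the group means of the 2 probe sets, with 3 of 4 low-salt arrays below every control array. The atrial regulatory light chain MYL7 was 1.31-fold higher, a difference that did not pass. The brightest probe sets of the ventricular MYL2, MYL3 and MYH7 differed by -0.04 to 0.02 (log2) after quantile normalization, at the top of the signal range where it leaves little room, and the 4 other MYH7 probe sets by -0.86 to 0.56. None of the 20 probe sets passed limma's adjusted p of 0.05, which 0.346% of the 28616 probe sets tested did; the smallest adjusted p was 0.258, for MYL4. At an unadjusted p under 0.05 there were 3 lower probe sets, the 2 of MYL4 and 1 dim one of MYH7, and 0 higher, against 5.78% lower and 5.27% higher over all tested. Of the 20, 14 had a change below 0 (46.2% over all tested), and the 2 of MYL4 were lower by at least 2-fold (2.84%). Several of the 20 read the same gene. By the brightest probe set of each gene, MYH7 (-0.03), MYL2 (-0.04), MYLK3 (-0.07) and MYL4 (-2.14) were below 0. MYL3 (0.02), MYBPC3 (0.2) and MYL7 (0.39) were above 0. Of all genes tested this way 44% were below 0. All 20 passed the filter on dim probe sets, which kept a mean of at least 5. The dim MYH7 probe set passed it through its control values (4.93 in low salt and 5.79 in controls), so it had to be higher in controls, and its place among the 3 supports nothing. Their median change was -0.09, against 0.04 over all tested. Every change below is low salt minus control in units of log2(value + 16) after quantile normalization; the added 16 shrinks the changes of dim probe sets.

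**Figure D1:**
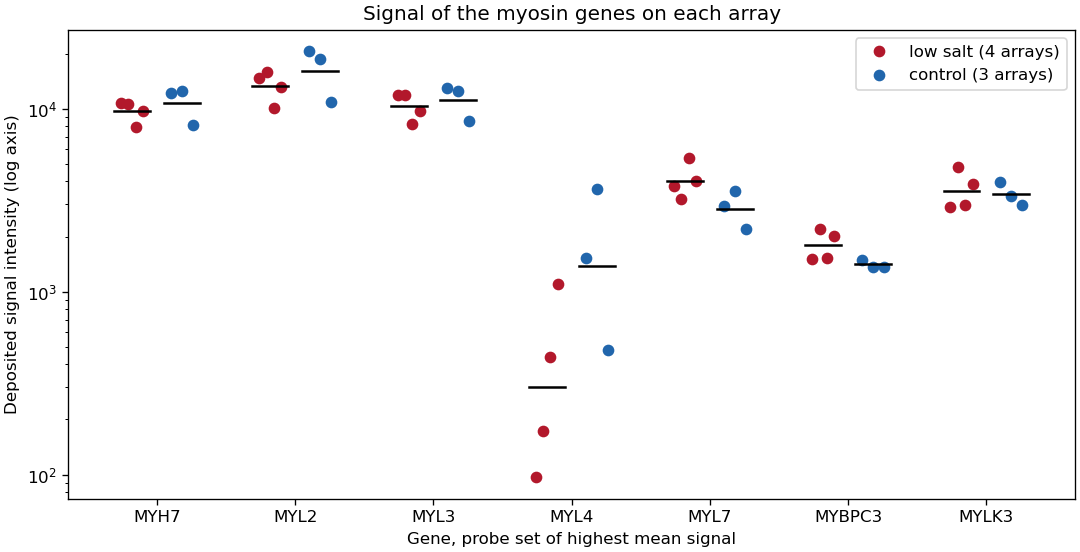
Deposited signal intensity (log axis) of each gene's probe set of highest mean signal, low salt (4 arrays) left of control (3 arrays), 1 point per array and a black bar at the geometric mean. MYL4 spreads from 96.5 to 3616 over the 7 arrays, while MYL2, MYL3 and MYH7 keep the groups close; heights of different genes are not comparable.

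The brighter MYL4 probe set had deposited intensities of 96.5, 172, 438 and 1098 in low salt, against 1520, 3616 and 477 in controls. The order within the low-salt group is samples 1 to 4, and the control values are samples 1, 3 and 4. The groups overlap through low-salt 4, which lies above control 4, while the other 3 low-salt arrays lie below all controls. On the normalized log2 scale it averaged 8.37 ± 1.34 over the low-salt arrays (SD, n = 4), against 10.51 ± 1.36 over the control arrays (SD, n = 3). The difference was -2.14 ± 0.65 (SE; limma unadjusted p = 0.00536, adjusted p = 0.258), with a 95% interval from -3.53 to -0.75.

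The dimmer MYL4 probe set repeated this order. Its intensities were 55.1, 93.7, 151 and 281 in low salt, against 525, 1140 and 171 in controls. All 7 arrays rank the same way on both probe sets, from low-salt 1 at the bottom to control 3 at the top. The difference was -1.69 ± 0.53 (SE; limma unadjusted p = 0.00682, adjusted p = 0.284). The 2 probe sets read the same RNA, so the second is no further sample of the diet; of all tested probe sets it was the one most like the first across the arrays, with a root mean square difference of 0.46 after each was centred on its own mean.

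**Figure D2:**
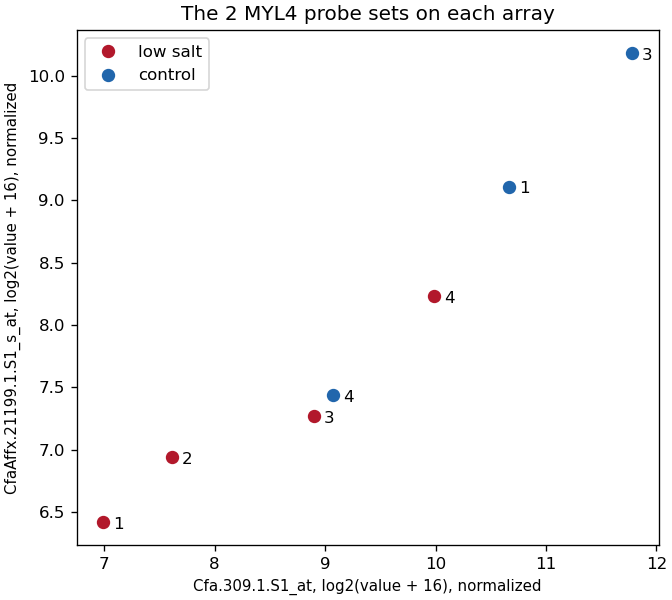
The 2 MYL4 probe sets against each other, both as normalized log2(value + 16), 1 point per array with its sample number, low salt in red and control in blue. The arrays fall in 1 order on both axes, and low-salt 4 (9.99 and 8.23) lies above control 4 (9.07 and 7.44).

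MYL4 varied widely within each group. Over the 7 arrays its brighter probe set spanned 37.5-fold in deposited intensity, and its SD of 1.68 (log2) was larger than that of 99.8% of the tested probe sets. The dimmer probe set, with an SD of 1.32, exceeded 99.6% of them. The median SD was 0.45. The size of the difference rested on single arrays: without control 4, the control with least MYL4, it was -2.89 and -2.49 and passed (limma adjusted p = 0.0385 and 0.014), and without control 3, which had most, it was -1.50 and -1.06 (adjusted p = 0.454 and 0.485). By the methods' t-test neither probe set reached an unadjusted p of 0.05 (0.0928 and 0.0896).

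The genes whose centred values over the 7 arrays came nearest to the brighter MYL4 probe set were AGTR2, MRPL53 and GNA12. AGTR2, the type 2 angiotensin receptor, had a root mean square difference of 0.79 from it. MRPL53, a protein of the mitochondrial ribosome, had 0.81 and GNA12, a G protein α subunit, 0.83. These are large beside the 0.46 between the 2 MYL4 probe sets, and the median over all other genes' probe sets was 1.62. The same comparison for MYL7 gave C13H8orf33 (0.12), the lipoprotein receptor relative LRP10 (0.12) and the ciliary transport protein IFT122 (0.13), with a median of 0.55.

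MYL7 is read by 1 probe set, which was bright on every array. Its intensities were 3762, 3214, 5340 and 4008 in low salt, against 2935, 3531 and 2206 in controls. Low-salt 1, 3 and 4 lie above all controls and low-salt 2 lies among them. Normalized, it averaged 11.93 ± 0.46 over the low-salt arrays (SD, n = 4), against 11.54 ± 0.23 over the control arrays (SD, n = 3). The difference of 0.39 ± 0.21 (SE; limma unadjusted p = 0.0823, adjusted p = 0.519) did not pass, with a 95% interval from -0.06 to 0.84. It was 0.05 without control 4 and low-salt 3, the arrays of highest median signal and also the MYL7 extremes of their groups. It was 0.93 with array medians set equal, where all tested probe sets shifted by 0.26.

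Differences between 2 genes were also taken within each array, on the deposited values. The atrial minus the ventricular essential light chain, MYL4 minus MYL3, was -6.72, -5.98, -4.18 and -3.13 (log2 of the deposited value + 16) in low-salt 1 to 4, against -3.07, -1.78 and -4.12 in controls. All 4 low-salt values lie below 2 of the 3 controls, and low-salt 4 lies above control 4. The regulatory pair, MYL7 minus MYL2, was -1.97, -2.30, -0.91 and -1.71 in low salt, against -2.80, -2.39 and -2.29 in controls. Here low salt is the higher group, with low-salt 2 and control 4 next to each other. The atrial light chains set against each other, MYL4 minus MYL7, gave -5.07, -4.10, -3.56 and -1.85 in low salt, against -0.94, 0.03 and -2.17 in controls. Group differences were -2.01, 0.77 and -2.62 on these deposited values, and -2.15, 0.43 and -2.53 after quantile normalization. On the deposited values each had an exact two-sided permutation p of 0.114 (adjusted over the 3 pairs 0.114), where the 35 splits of 3 and 4 arrays allow no p under 0.0571. These pairs were set up after the values were seen, so the difference between MYL4 and MYL7 is described and did not pass.

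**Figure D3:**
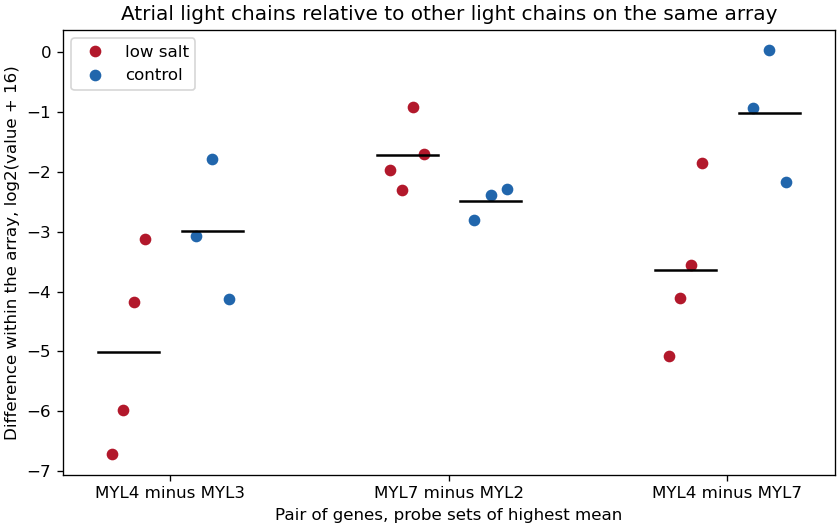
Difference between 2 light chain genes on the same array (log2 of deposited value + 16), low salt left of control, 1 point per array and a bar at the mean. The low-salt mean is lower (differences of -2.01 and -2.62) in the pairs with MYL4 and higher by 0.77 for MYL7 minus MYL2, and the groups overlap in each pair.

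The ventricular light chains were near the top of the signal range on all arrays. MYL2, the ventricular regulatory light chain, had intensities of 14796, 15868, 10021 and 13178 in low salt, against 20574, 18563 and 10864 in controls. Low-salt 3 and control 4 had the lowest MYL2 values of their groups. After normalization the difference was -0.04 ± 0.10 (SE, limma adjusted p = 0.917), with a 95% interval from -0.25 to 0.17. MYL3, the ventricular essential light chain, differed by 0.02 ± 0.09 on its brighter probe set and by -0.02 ± 0.12 on the other (SE, limma adjusted p = 0.970 for both). The brighter one had 11884, 11840, 8221 and 9764 in low salt, against 12895, 12500 and 8537 in controls. Low-salt 3 and control 4 again had the lowest values of their groups. MYL2 and MYL3 lie at the 98.9th percentile of their array or higher, where quantile normalization leaves little room to differ, and their sign turned with the scaling: MYL2 differed by -0.28 with the values as deposited and by 0.16 with array medians set equal, and the brighter MYL3 probe set by -0.11 and 0.32. All tested probe sets shifted by -0.18 as deposited and by 0.26 with array medians set equal. None of these differences of MYL2 and MYL3 passed.

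MYH7, the β heavy chain and main motor of the ventricle, is read by 5 probe sets that did not move together. The brightest had 10745, 10649, 7944 and 9721 in low salt, against 12237, 12526 and 8102 in controls, a normalized difference of -0.03 ± 0.09 (SE, limma adjusted p = 0.945). The groups interleave, and the 95% interval ran from -0.22 to 0.17. This probe set too lies near the top of the range. With array medians set equal the difference was 0.28, where all tested probe sets shifted by 0.26. The next by signal had 972, 1036, 704 and 513 in low salt, against 996, 813 and 932 in controls, and differed by -0.34 ± 0.23. Low-salt 4 was lowest there, as it was on 2 of the 3 dimmer MYH7 probe sets below.

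After normalization the dimmest MYH7 probe set was the 1 member of the 20 whose groups did not overlap, and it was lower. Over all tested, 5.68% were lower and 5.13% higher without overlap on that scale. As deposited, a dim MYLK3 probe set (lower) and the bright MYBPC3 one (higher) were without overlap too. The share without overlap over all tested was not taken on the deposited scale, so this is a description only. The dimmest MYH7 probe set had 20.7, 14.3, 12.5 and 2.42 in low salt, against 43.8, 31.1 and 82.8 in controls. All 4 low-salt values lie below all controls, at signals near or below the array medians of 19.3 to 51.3. The difference was -0.86 ± 0.39 (SE; limma unadjusted p = 0.0438, adjusted p = 0.437) and moved between -1.56 and -0.39 with the offset added before the logarithm. Since it passed the filter only through its controls, these values are a description; without a filter its unadjusted p was 0.053, and the p stayed under 0.05 in 5 of the 17 alternatives that tested it. The other dim probe sets differed by -0.43 ± 0.30 (49.6 to 141 in low salt and 109 to 212 in controls) and by 0.56 ± 0.45 (36.2 to 89.1 in low salt and 6.64 to 99.7 in controls). MYH6 and MYH7 are close relatives that lie beside each other in the dog genome, and which of these probe sets can also bind MYH6 RNA is not given, so the dimmer MYH7 values are uncertain.

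**Figure D4:**
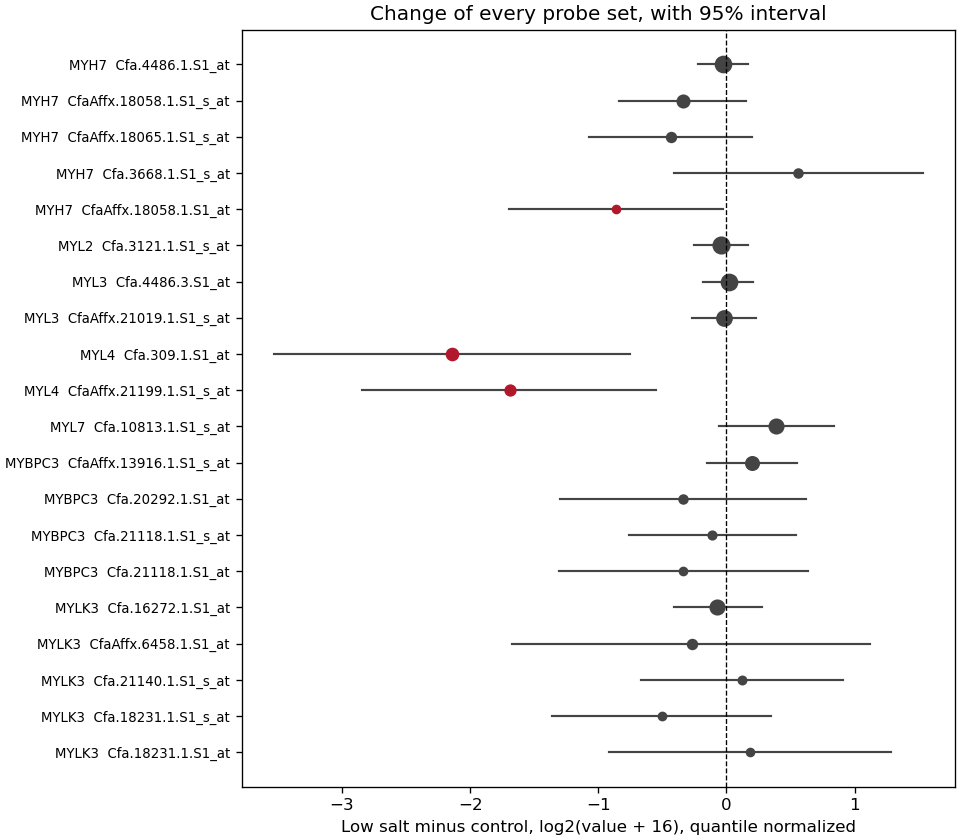
Change of each of the 20 probe sets, low salt minus control on the normalized log2(value + 16) scale, with its 95% interval from limma; larger points have higher mean signal and red points have an unadjusted p under 0.05. The MYL4 probe sets lie at -2.14 and -1.69, the dimmest MYH7 probe set at -0.86, and the bright MYL2, MYL3 and MYH7 probe sets have narrow intervals around 0.

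MYBPC3, the thick-filament brake, had 1 bright and 3 dim probe sets. The bright one had 1511, 2201, 1526 and 2021 in low salt, against 1491, 1367 and 1367 in controls. As deposited, all 4 low-salt values lie above the controls, by a narrow gap; after normalization low-salt 1 lay among them. The normalized difference was 0.20 ± 0.16 (SE, limma adjusted p = 0.683) and reached 0.78 with array medians set equal, where all tested probe sets shifted by 0.26. The dim ones differed by -0.34, -0.11 and -0.34, with intensities from 2.10 to 141 in low salt and 19.9 to 127 in controls.

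MYLK3, the kinase of the ventricular regulatory light chain, likewise had 1 bright probe set and 4 dimmer ones. The bright one had 2905, 4788, 2980 and 3876 in low salt, against 3965, 3340 and 2978 in controls, and differed by -0.07 ± 0.16 (SE, limma adjusted p = 0.917). The low-salt arrays lie on both sides of the controls. The others differed by -0.27, 0.12, -0.50 and 0.18, none at an unadjusted p under 0.05. The one at -0.50 had 3.31 to 33.8 in low salt, against 42.5 to 55.2 in controls. Its groups did not overlap as deposited but did after normalization. The brightest of these 4 had 113, 242, 12.0 and 258 in low salt, against 196, 137 and 121 in controls. Its spread, an SD of 1.20, came from low-salt 3, and without that array its change of -0.27 turned to 0.54.

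After quantile normalization the bright ventricular genes spanned little over the arrays. The genes nearest to the brightest MYH7 probe set, the translation factor subunit EIF3E, the ribosomal protein RPL35A and the RNA-processing protein LSM6, each had a root mean square difference of 0.03 from it, and its own values spanned 0.15 (log2) over the arrays. Those nearest to MYL2, at 0.05 each, were the adaptor CRKL, EIF3E and the cytochrome oxidase assembly factor COA5.

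Other genes of the myosin system were taken from 6 lists, with the probe set of highest mean standing for each gene. Of 58 genes tested, 2 were higher and 4 lower at an unadjusted p under 0.05, and 0 passed limma's adjusted p; over all 11381 genes tested this way 5.57% were higher, 4.89% were lower and 0.281% passed. Of these genes 44% had a change below 0 and 56% above, with a median of 0.05. Among skeletal and developmental heavy chains (6 of 9 tested, median 0.03) none reached that level; MYH15 differed by -0.80 and the fast skeletal MYH4 by -0.82. Among other sarcomeric light chains and myosin-binding proteins (9 of 13 tested, median -0.21) the M-band protein MYOM2 was at 0.66 ± 0.24 (SE, limma adjusted p = 0.356) without overlap, and the light chain MYL10 at -0.96 ± 0.42. Among nonmuscle and smooth muscle myosin II chains (6 of 8 tested, median -0.26) nonmuscle MYH10 was at -0.84 ± 0.37 (SE, limma adjusted p = 0.433) without overlap after normalization, and nonmuscle MYH9 at -0.51. As deposited, the MYH10 groups overlapped, with low-salt 3 at 77.7 above control 3 at 73.2.

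The enzymes that set light chain phosphorylation held 11 of 13 tested genes below 0 (44% over all genes tested this way), with a median of -0.21 (0.05 over all). Other lists leaned the same way, with 9 of 13 transcription factors and 4 of 6 nonmuscle and smooth muscle chains below 0. So were 5 of 9 other sarcomeric light chain and binding protein genes and 3 of 6 skeletal and developmental heavy chains. ROCK1, a kinase that inhibits the myosin phosphatase, differed by -0.46 ± 0.17 (SE, limma adjusted p = 0.354) without overlap, and its relative CDC42BPA by -0.67 ± 0.32, also without overlap. Myosin chaperones and turnover genes (11 of 11 tested) had 9 above 0 (56% over all genes tested this way) and a median of 0.24. The chaperone HSP90AB1 was at 0.37 ± 0.17 (SE, limma adjusted p = 0.446) and the muscle ring-finger protein TRIM54 at 0.55 ± 0.28. TRIM54 was without overlap after normalization but not as deposited. Among transcription factors of the myosin genes (13 of 26 tested, median -0.08) NR2F2, which in mice maintains atrial identity, was at -0.75 ± 0.22 (SE, limma adjusted p = 0.248). NR2F2 had 305, 204, 289 and 214 in low salt, against 462, 432 and 382 in controls. All low-salt arrays lie below all controls, unlike MYL4, whose groups overlap. Over all tested probe sets 5.68% were lower and 5.13% higher without overlap after normalization. NR2F1, a relative of NR2F2 on the same list, differed by -0.08 with overlapping groups (limma unadjusted p = 0.787). The cardiac factor NKX2-5 was at 0.49 ± 0.27, without overlap after normalization but not as deposited.

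Markers of other cells give the setting of the MYL4 result. In bulk tissue, fewer cells of a type and less RNA per cell cannot be told apart. Of 18 atrial markers 14 were named and 9 tested, with a median of -0.08. At an unadjusted p under 0.05, 1 (NR2F2) was lower and 0 higher, against 4.89% and 5.57% over all genes tested this way. HAMP, next by p, differed by 0.63. The summed intensity of the named atrial markers was 5962 to 11394 in low salt and 7279 to 10842 in controls. PAM (3247 to 4534 over the arrays) and DKK3 (872 to 5924) made up most of it. BMP10 read at most 77.2 and KCNJ5 at most 65.4, so the sum says little about such dim atrial markers. MYBPHL, KCNJ3, DHRS9, TBX5 and UPK3B were too dim to be tested, and the defining NPPA and SLN are not named in the annotation used here. Ventricular markers (9 of 12 named, 6 tested, median 0.01) summed to 34706 to 46392 in low salt and 33981 to 53900 in controls. The troponin TNNI3 was higher by 0.25 at that level (limma unadjusted p = 0.038, adjusted p = 0.422) and no other tested ventricular marker reached it; GJA1 differed by -0.42, and IRX4, HAND1 and LBH were too dim to be tested. Of the skeletal muscle markers 11 of 14 were tested, and fast troponin I (TNNI2) fell by 2.38 ± 0.44 on the log2 scale (SE, limma adjusted p = 0.0411), a call kept in 7 of 18 alternatives and lost without control 1 (adjusted p = 0.226) or control 3 (0.126) and without low-salt 2 (0.109), low-salt 3 (0.0591) or low-salt 4 (0.0995). The TNNI2 call was also lost with an offset of 1 (adjusted p = 0.164), no filter (0.106), only probe sets above the median signal (0.0606), no trend (0.133) and the replicate block (0.14), all by limma. By the methods' t-test the adjusted p was 0.391. The TNNI2 change was -3.27 with an offset of 1 and -1.50 with an offset of 64, so its size depends on the offset. MYH4 was next by p, as above. The skeletal list had a median of -0.14 and summed to 20295 to 26679 in low salt and 21502 to 32759 in controls. Its MYH2, MYH4, MYLPF and MYL1 read at most 201 on any array, so the sum rests on other members of the list. The part of any of these in the MYL4 result was not tested.

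The remaining marker lists are short. Past an unadjusted p of 0.05 were 1 of 4 conduction, 2 of 10 smooth muscle and 1 of 3 nerve and Schwann cell markers. Over all genes tested this way, 5.57% were higher and 4.89% lower at that threshold. Conduction markers (4 tested, median 0.33) had IRX3 at 0.88 and TBX3 at 0.81, and smooth muscle markers (10 tested, median 0.05) had CNN1 at 1.19 and desmin (DES) at 0.75; IRX3, CNN1 and DES were past it. Nerve and Schwann cell markers (3 tested, median -0.88) had MBP at -1.42, past it, and S100B at -0.88. None of the fibroblast (11 tested, median -0.03, COL3A1 at -0.59 and LUM at 0.16), endothelial (11, median -0.05, KDR at 0.44 and EGFL7 at 0.43) and leukocyte markers (10, median 0.16, CD68 at 0.42 and LYZ at 0.20) reached it, nor did the erythrocyte (3, median -0.19, SLC4A1 at -0.46 and EPB42 at -0.19) or adipocyte ones (6, median -0.15, LIPE at -0.79 and FABP4 at 0.59). The GAPDH 3′ to 5′ signal ratio, a measure of RNA integrity, was 17.2, 16.6, 14.5 and 22.6 in low salt, against 40.9, 24.4 and 22.7 in controls, and 2.36, 2.03, 2.28 and 2.41 in low salt, against 2.43, 2.78 and 2.53 in controls, on another pair of probe sets. In both pairs every low-salt value lay below every control value (two-sided p = 0.0571 by exact permutation, the least that these splits allow), and their part in the MYL4 result was not tested.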

How the data were processed

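The deposited values are probe set signal intensity on a linear scale, made with GCOS per the submitters' processing notes; no source here states its version, the probe summary or the probe sequences. Each array's 2% trimmed mean was 150 to 150.1, so arrays had been scaled, but medians differed by 0.93 (log2). Arrays carry no read depth; their number limits the precision. From the deposited intensities, log2(value + 16) was taken after leaving out 111 control probe sets, and arrays were quantile normalized. The third of 42924 probe sets with the lowest mean was left out, and 28616 were tested with limma 3.58.1 (trend) in R 4.3.3, with Benjamini-Hochberg adjustment over all. Groups and sample numbers come from the sample titles.

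Names come from the platform annotation; of 29254 probe sets with 1 symbol, 27680 matched the RefSeq table of UU_Cfam_GSD_1.0 by gene number. The members, lists and tests were chosen with earlier results of these data known. All members are named; of each list the 2 genes of smallest p and any past the adjusted p are named, each by its probe set of highest mean, and for MYH7, MYL2, MYL4 and MYL7 the 3 genes nearest in centred pattern. NR2F2's values per array, NR2F1 and the markers named beside the summed intensities were added after their values were seen. Alternatives were offsets of 1 and 64, other scalings and filters, array weights, no trend, a replicate block, the methods' t-test and leaving out arrays.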

Additional observations from a re-analysis of the deposited data

How the results depend on the processing

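Both MYL4 probe sets stayed below 0 under all 18 alternatives, from -3.12 to -1.50 and from -2.57 to -1.06. They passed the adjusted p without control 4 and without control 4 and low-salt 3 (adjusted p = 0.0429 and 0.0249, chosen after seeing the data), and in none of the other alternatives by limma or the methods' t-test; the largest adjusted p were 0.698 and 0.734. Of the 360 values of the 20 probe sets under alternatives, 25 changed sign, all in probe sets that did not pass. With the values as deposited these were the brighter MYL3 probe set (-0.11), the other (0.03), and 3 of MYLK3 (0.06, -0.28 and -0.14). With array medians set equal they were MYH7 (0.28 and 0.21), MYL2 (0.16), MYL3 (0.46) and MYLK3 (0.50 and 0.05). All tested probe sets shifted by -0.18 with the values as deposited and by 0.26 with array medians set equal. Without control 4 and low-salt 3, 1 MYLK3 probe set was at 0.33. With 1 array left out the changes ran from -0.06 to 0.01 and -0.10 to 0.95 for 2 MYH7 probe sets, -0.11 to 0.02 for MYL2, -0.01 to 0.05 and -0.09 to 0.07 for MYL3, and -0.18 to 0.05, -0.66 to 0.54, -0.04 to 0.39 and -0.21 to 0.59 for 4 MYLK3 probe sets.

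The 3 probe sets at an unadjusted p under 0.05 became 0 by the methods' t-test and 1 to 4 with 1 array left out (1 without control 3), and 2 to 4 otherwise. Over all tested, 5.78% were lower at that level in the main fit and 5.08% by the methods' t-test. With 1 array left out this share was 3.85% to 6.75%. It was 10.9% as deposited, where 3 of the 20 were lower, and 3.81% with equal array medians, where 2 were. As deposited, and also with equal array medians, MYL7 was among them (limma unadjusted p = 0.0332 and 0.0254), higher in low salt, as it was without low-salt 2 (0.0258). All tested probe sets shifted by -0.18 as deposited and by 0.26 with equal array medians. The dimmest MYH7 probe set kept an unadjusted p under 0.05 in 5 of 17 alternatives, and its p reached 0.155 without control 4 and 0.238 without control 4 and low-salt 3. Over the whole array the 99 calls, 88 of them lower, became 39 with an offset of 1, 165 with the values as deposited, 27 without a filter, 177 with array weights, 19 without a trend, 4 by the methods' t-test, 377 without control 4 and low-salt 3, and 21 to 290 with 1 array left out (21 without control 1 or low-salt 4, 24 and 26 without low-salt 1 and 2, 41 without control 3, 290 without control 4). Of these calls 88.9% were lower, against 92.1% as deposited and 76.3% with equal medians. The cause of these changes was not tested.

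Sample numbers 1, 3 and 4 occur in both groups. Samples of the same number did not deviate together (correlations of 0.07, -0.26 and -0.18 over probe sets). The highest correlation between the groups was 0.43, between low-salt 3 and control 4. The labels do not say what the number stands for, and whether samples of 1 number share anything else was not tested. With the replicate block the 99 became 27, the count of the 20 stayed at 3 (2 lower and 1 higher, MYL7, limma unadjusted p = 0.00963), and the brighter MYL3 probe set turned to -0.01. Over all tested, 3.69% were lower at an unadjusted p under 0.05 with the block. Number 2 occurs only in low salt, so the block takes low-salt 2 out of the comparison. The MYL7 change was 0.53 with the block and also 0.53 without low-salt 2, so the block is no separate support.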
